A study of Homo sapiens with 18 samples.

Results

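The genes described here are 10 genes of glucose uptake and glycolysis, or of the hypoxia-type metabolic programme: SLC2A1, HK2, PFKFB3, PFKFB4, PFKP, LDHA, LDHB, PDK1, PKM and CA9. They were taken by gene symbol, and all 10 were found among the 58336 gene identifiers of each count table. Their transcripts were measured by RNA sequencing in TC-32, TC-71 and A673, 3 established lines of Ewing sarcoma, a bone and soft-tissue cancer driven by a fusion of EWSR1 to an ETS factor gene, here FLI1. Cells of each line were reverse transfected with a negative control RNA (siNeg) or with a small interfering RNA against FLI1 (siFLI1), each at 20 nM with a lipid reagent. FLI1 sequence is part of the fusion transcript. Each line gave 3 siNeg and 3 siFLI1 libraries, so 18 libraries form 6 groups. TC-32 and TC-71 were grown in RPMI medium and A673 in DMEM. Column names give 48 h for the 12 libraries of TC-32 and TC-71 and no time for A673, and only the name of the table gives the line of those 12. The knockdown was transient, and the labels do not say that replicates came from separate cultures, so p-values measure the spread between these samples, which may be technical.

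Glycolysis turns glucose into pyruvate. SLC2A1 (GLUT1) carries glucose into the cell, hexokinases trap it as glucose 6-phosphate, and phosphofructokinase commits it to the pathway. The PFKFB enzymes make or remove fructose 2,6-bisphosphate, the strongest activator of phosphofructokinase. Pyruvate kinase makes pyruvate, lactate dehydrogenase exchanges it with lactate, and PDK1 phosphorylates pyruvate dehydrogenase and so slows the oxidation of pyruvate in mitochondria. CA9 is a carbonic anhydrase of the cell surface and a classical target of the hypoxia-inducible factors (HIF), which also drive SLC2A1, HK2, LDHA and PDK1 when oxygen is short. A high rate of glycolysis in the presence of oxygen is common in tumour cells.

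Total counts were 24102487 to 33669271 per library in TC-32, 19685354 to 37234528 in TC-71 and 114564479 to 120993595 in A673. FLI1, the targeted gene, fell in each line, with log2 changes of -1.03, -1.47 and -2.09 in the order TC-32, TC-71, A673. Levels are given in CPM, counts scaled to the library total multiplied by its TMM scaling factor, not to the total alone. The 10 Ewing sarcoma markers looked for were abundant in siNeg. They summed to 2130 to 2206 CPM in TC-32, 2747 to 2847 in TC-71 and 2839 to 2921 in A673. After siFLI1, 10 of 10 fell in both TC-32 and A673, and 9 of 9 tested fell in TC-71, where CD99, a defining marker, is listed at 0 counts in all 6 libraries. A second row of CD99 has the same range of counts as the first in TC-32 and A673 and is also at 0 in TC-71. The sums hold only the first row. The cause of the 0 counts was not tested, so they are not read as absence of CD99. The TC-71 table was made by another counter than those of TC-32 and A673, so levels are compared within a line and only set side by side across lines. Mitochondrial transcripts took 9.61% to 9.82% of siNeg counts and 9.69% to 10.6% of siFLI1 counts in TC-32. The corresponding shares were 9.98% to 10.6% and 10.1% to 10.4% in TC-71, and 6.98% to 7.56% and 6.81% to 7.11% in A673. The summed level of 8 leukocyte, epithelial and endothelial markers went from between 2.98 and 3.81 CPM to between 6.48 and 7.41 in TC-32. It went from between 1.39 and 1.83 to between 1.40 and 2.41 in TC-71, and from between 0.910 and 1.36 to between 2.20 and 2.35 in A673. Of 4 tested in TC-32, CDH1 (E-cadherin) rose from 0.162 to 4.44 CPM, CDH5 (VE-cadherin) rose from 0.281 to 1.39 and PECAM1, also endothelial, fell from 2.10 to 0.433. Of 4 tested in A673, CDH5 rose from 0.378 to 1.58 CPM and PECAM1 fell from 0.483 to 0.224. CD14, a leukocyte marker, also rose there (log2 1.43). The 2 tested in TC-71 missed the threshold in edgeR. CD3E had 0 counts in TC-32 and A673, and PTPRC, the pan-leukocyte marker, had at most 10 counts in any library. Their part in the results was not tested.

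All 9 of the genes that passed the filter on low counts differed between siFLI1 and siNeg in each line, while CA9 did not pass it in any line. In TC-32, 2 were higher and 7 lower after siFLI1. In TC-71, 2 were again higher and 7 lower. In A673, 7 were higher and 2 lower. Calls were made at an adjusted p below 0.05 in edgeR's quasi-likelihood test, adjusted over all genes of the line by Benjamini-Hochberg. By this rule 81.4% of the 16227 genes tested in TC-32 were called, 71.9% of 17085 in TC-71 and 71% of 18444 in A673, so a count of 9 of 9 lies near a high background. The higher calls were 41.3%, 36.8% and 35.6% of all genes in the 3 lines, and the lower calls 40.1%, 35% and 35.4%. In the same order of lines, the median log2 change of the 9 genes was -0.83, -0.54 and 0.21, beside 0.02, 0.02 and -0.0066 over all genes tested. The CPM of the 10 genes summed to between 4276 and 4375 in siNeg and between 1981 and 2059 in siFLI1 libraries of TC-32. In TC-71 the sum was 4751 to 4996 and 4063 to 4250, and in A673 it was 4141 to 4329 and 4719 to 4919.

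**Figure D1:**
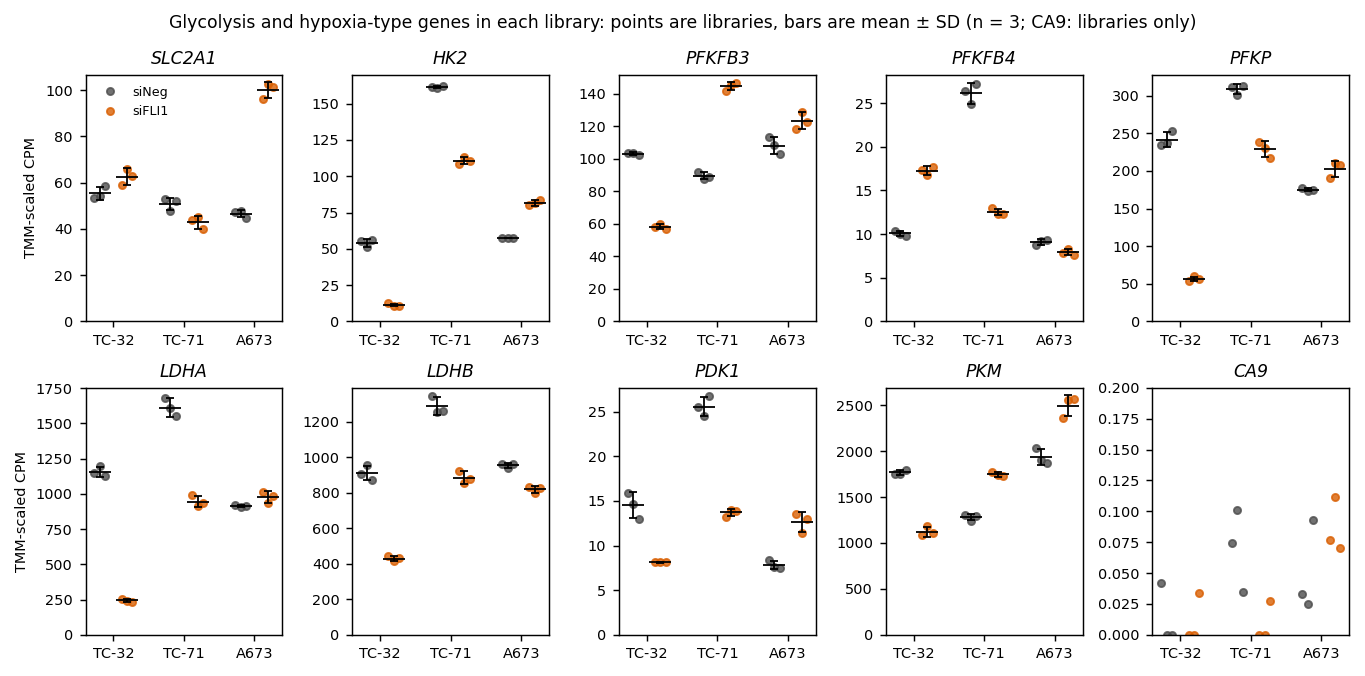
CPM of each gene in each of the 18 libraries (points; linear axis from 0), by line and siRNA, with the mean and SD of 3 libraries for all but CA9. HK2, PFKP and LDHA stand farthest apart between the siRNAs in TC-32, and CA9 lies close to 0 counts throughout.

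The genes of glucose entry and trapping went different ways in the lines. SLC2A1 (ENSG00000117394; GRCh38 chr1:42925353-42958893, minus strand) was at 53.4, 54.1 and 58.7 CPM in the siNeg libraries of TC-32 and at 59.0, 66.0 and 63.0 in siFLI1. This was a rise of 0.18 on the log2 scale (SE 0.058, adjusted p = 0.00648 in edgeR). The lowest siFLI1 library lay only just above the highest siNeg library, and without siNeg replicate 1 the change was 0.14 (adjusted p = 0.0614). Over all alternatives tried, its adjusted p ranged from 0.000995 to 0.0614. In TC-71 the siNeg libraries had 52.8, 47.7 and 51.9 CPM and the siFLI1 libraries 43.8, 45.0 and 39.8, and so fell by 16.0% (log2 -0.25, SE 0.061, adjusted p = 0.00051). A673 stood apart, with 47.1, 47.6 and 44.8 CPM in siNeg and 96.0, 102.7 and 101.4 in siFLI1. There SLC2A1 rose 2.15-fold (log2 1.10, SE 0.043, adjusted p = 8.47e-13), the largest rise of any of the 9 genes in any line.

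HK2 (ENSG00000159399; chr2:74834127-74893359, plus strand) encodes the hexokinase that many tumours use in place of the broadly expressed HK1. In TC-32 it went from 55.1, 51.1 and 55.9 CPM to 12.4, 10.8 and 10.8, a 4.78-fold fall (log2 -2.26, SE 0.072, adjusted p = 2.84e-19 in edgeR). Every siFLI1 library held less than every siNeg library by a wide margin. TC-71 had 161.4, 160.5 and 162.4 CPM in siNeg and 108.4, 113.3 and 110.2 after siFLI1 and so fell by 31.5% (log2 -0.55, SE 0.044, adjusted p = 3.35e-12). In A673 it rose by 41.9%, from 57.5, 57.7 and 57.3 CPM to 80.0, 81.3 and 83.5 (log2 0.51, SE 0.038, adjusted p = 5.4e-09). HK2 thus fell in 2 lines and rose in the other. Its siRNA groups did not overlap in any line, and neither did those of the other 8 tested genes, while over all genes tested 82.5% (TC-32), 73.8% (TC-71) and 73.6% (A673) had groups apart.

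At the committed step, PFKP (ENSG00000067057; chr10:3066333-3137718, plus strand), the platelet-type subunit of phosphofructokinase 1, followed HK2 in direction in each line. TC-32 had 234.1, 236.8 and 252.7 CPM in siNeg and 54.0, 59.9 and 55.8 in siFLI1, a 4.26-fold fall (log2 -2.09, SE 0.050, adjusted p = 1.03e-21 in edgeR). TC-71 had 311.0, 300.9 and 313.2 against 238.6, 230.6 and 217.7 and so fell by 25.8% (log2 -0.43, SE 0.043, adjusted p = 3.91e-10). The rise in A673 was smaller, 15.7%, from 177.7, 173.4 and 174.7 CPM to 190.7, 210.0 and 207.3 (log2 0.21, SE 0.040, adjusted p = 0.000217).

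The fructose 2,6-bisphosphate enzymes PFKFB3 (ENSG00000170525; chr10:6144934-6254644, plus strand) and PFKFB4 (ENSG00000114268; chr3:48517684-48562015, minus strand) moved in opposite directions to each other in every line. PFKFB3 has by far the higher kinase activity of the family, while PFKFB4 has more balanced kinase and phosphatase activities. In TC-32, PFKFB3 fell from 103.6, 103.3 and 102.1 CPM to 57.8, 59.7 and 56.7 (log2 -0.83, SE 0.049, adjusted p = 8.16e-14 in edgeR). PFKFB4 rose there from 10.4, 10.0 and 9.81 CPM to 17.3, 16.7 and 17.7 (log2 0.78, SE 0.083, adjusted p = 5.9e-09). TC-71 showed the reverse, with both changes again free of overlap between siRNAs. In that line PFKFB3 rose from 91.8, 87.8 and 88.9 CPM to 141.7, 145.5 and 146.6 (log2 0.69, SE 0.045, adjusted p = 3.18e-14). PFKFB4 fell from 26.4, 24.8 and 27.1 CPM to 12.9, 12.3 and 12.3 (log2 -1.07, SE 0.076, adjusted p = 2.24e-13).

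In A673 the pair moved as in TC-71 but by less. PFKFB3 went from 113.2, 108.1 and 102.8 CPM to 118.3, 128.8 and 122.7 (log2 0.19, SE 0.044, adjusted p = 0.00116 in edgeR). With library size alone as the scaling, its change was 0.09 (adjusted p = 0.0902), and over all alternatives the adjusted p ranged from 1.81e-06 to 0.0902. PFKFB4 went from 8.73, 9.18 and 9.38 CPM to 7.81, 8.32 and 7.66 (log2 -0.20, SE 0.063, adjusted p = 0.0102). Leaving out siNeg replicate 3 gave -0.17 (adjusted p = 0.0556) and leaving out siFLI1 replicate 3 gave -0.17 (adjusted p = 0.0574), with a range over all alternatives from 0.000493 to 0.0574. Of the exon bases of PFKFB4, 4.88% lie within UCN2, a neighbour on the same strand. UCN2 had 1 to 7 counts in siNeg and 157 to 221 in siFLI1 libraries of TC-32, 3 to 13 and 24 to 58 in TC-71, and 29 to 38 and 172 to 173 in A673. The part of UCN2 reads in the counts of PFKFB4 was not tested.

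At the end of the pathway, PKM (ENSG00000067225; chr15:72199029-72231819, minus strand), which encodes both splice forms of muscle-type pyruvate kinase, split the lines in another way. It fell in TC-32 from 1754, 1756 and 1796 CPM to 1082, 1181 and 1104 (log2 -0.66, SE 0.038, adjusted p = 5.75e-14 in edgeR). In TC-71 it rose from 1302, 1241 and 1292 CPM to 1777, 1735 and 1727 (log2 0.45, SE 0.038, adjusted p = 1.05e-11). A673 also had a rise, from 2032, 1906 and 1870 CPM to 2362, 2555 and 2570 (log2 0.37, SE 0.041, adjusted p = 6.1e-07). PKM was therefore the gene of this group that was lower after siFLI1 in TC-32 and higher in both other lines, as PFKFB3 was. Gene-level counts do not separate its M1 and M2 forms.

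LDHA and LDHB encode the M and H subunits of lactate dehydrogenase, and tetramers rich in M subunits are the form classically tied to lactate production. LDHA (ENSG00000134333; chr11:18394560-18408425, plus strand) had 1145, 1195 and 1129 CPM in siNeg and 255.1, 239.8 and 234.6 in siFLI1 libraries of TC-32. This was a 4.76-fold fall (log2 -2.25, SE 0.042, adjusted p = 6.89e-24 in edgeR). In TC-71 it fell by 41.4%, from 1680, 1606 and 1550.0 CPM to 990.1, 912.5 and 932.6 (log2 -0.77, SE 0.041, adjusted p = 2.92e-16). In A673 the siNeg libraries had 924.3, 910.2 and 910.7 CPM and the siFLI1 libraries 1016, 931.9 and 984.2, a rise of 6.82% (log2 0.10, SE 0.036, adjusted p = 0.0276). This smallest of the 27 changes held its sign except with library size alone as the scaling, where it was -0.0078 (adjusted p = 0.852). It missed the threshold with no low-count filter (adjusted p = 0.0535), without siNeg replicate 2 (0.0745), siNeg replicate 3 (0.0694) or siFLI1 replicate 3 (0.0773), and its range over all alternatives was 0.00139 to 0.852. LDHA expected counts were fractional in all 6 libraries of TC-32 and of A673, as RSEM gives where reads fit more than 1 place. The row of the copy LDHAP7 held at most 17 counts in any library.

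LDHB (ENSG00000111716; chr12:21635342-21757857, minus strand) was the single gene of the group that fell in all 3 lines. TC-32 went from 905.7, 953.9 and 873.0 CPM to 441.2, 416.8 and 430.4, a 2.12-fold fall (log2 -1.08, SE 0.040, adjusted p = 6.89e-18 in edgeR). TC-71 went from 1345, 1257 and 1263 CPM to 924.6, 854.5 and 875.3 (log2 -0.54, SE 0.041, adjusted p = 9.12e-13). A673 went from 960.4, 940.0 and 963.0 CPM to 834.2, 797.6 and 828.7 (log2 -0.22, SE 0.033, adjusted p = 1.89e-05). The siRNA groups did not overlap in any line, and the step became smaller from TC-32 to TC-71 to A673. Among all 14233 genes tested in the 3 lines, 37.9% were called in the same direction in each and 13.7% were called in each with mixed directions. Of the exon bases of LDHB, 33.4% are shared with an overlapping gene model on the same strand that has no row in the tables.

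PDK1 (ENSG00000152256; chr2:172555373-172608669, plus strand) was among the lower-count genes of the group. Its siNeg libraries had 15.9, 14.7 and 13.0 CPM in TC-32 and its siFLI1 libraries 8.20, 8.11 and 8.12 (log2 -0.83, SE 0.094, adjusted p = 1.52e-08 in edgeR). In TC-71 it fell from 25.5, 24.5 and 26.7 CPM to 13.3, 14.0 and 13.9 (log2 -0.90, SE 0.075, adjusted p = 7.36e-12). In A673 it rose from 8.37, 7.63 and 7.44 CPM to 13.6, 11.4 and 13.0 (log2 0.70, SE 0.072, adjusted p = 2.74e-07). PDK1 thus followed HK2, PFKP and LDHA: lower in TC-32 and TC-71 and higher in A673. The small LDHA rise in A673 did not hold under every alternative.

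CA9 (ENSG00000107159; chr9:35673928-35681159, plus strand), the most hypoxia-restricted gene of the group by its known regulation, was close to undetected. TC-32 libraries held 0 to 1 counts with either siRNA. TC-71 libraries held 1 to 2 counts in siNeg and 0 to 1 in siFLI1, all under the limit of 3 counts that a count of 0 allows. In A673, which was sequenced deepest, siNeg libraries held 3 to 11 counts and siFLI1 libraries 8 to 13, so the groups overlapped. No difference in CA9 was detectable at this depth. Its exons share 35.7% of their bases with ARHGEF39 on the other strand, and whether the counting used strand is not given in the sources used here.

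The core of the HIF response element, ACGTG or GCGTG, was looked for on both strands in the 250 bases before the RefSeq start nearest to each gene's MANE Select transcript. A few of the windows are shown because their genes moved most in TC-32 (HK2, LDHA and PFKP) or oppositely between TC-32 and TC-71 (PFKFB3), and they differ in how many cores they hold. They are on the plus strand of GRCh38.p14, 5′ to 3′, less any bases in exons, and capitals mark ACGTG or GCGTG on either strand, so that CACGT and CACGC mark the reverse strand. They are HK2 at chr2:74833877-74834126, LDHA at chr11:18394313-18394559, PFKP at chr10:3067720-3067969, whose RefSeq start lies 422 bases downstream of the MANE start, so that the window lies within the gene, and PFKFB3 at chr10:6202682-6202865.
HK2: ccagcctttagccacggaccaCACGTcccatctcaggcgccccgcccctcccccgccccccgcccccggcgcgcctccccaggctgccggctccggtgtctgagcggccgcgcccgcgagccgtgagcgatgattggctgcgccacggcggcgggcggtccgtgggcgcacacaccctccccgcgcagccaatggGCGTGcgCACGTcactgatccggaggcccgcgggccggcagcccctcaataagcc
LDHA: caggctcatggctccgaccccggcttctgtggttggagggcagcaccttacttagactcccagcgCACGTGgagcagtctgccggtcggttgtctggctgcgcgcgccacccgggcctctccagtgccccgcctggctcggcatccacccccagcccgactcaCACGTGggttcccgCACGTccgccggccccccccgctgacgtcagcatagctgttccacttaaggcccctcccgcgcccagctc
PFKP: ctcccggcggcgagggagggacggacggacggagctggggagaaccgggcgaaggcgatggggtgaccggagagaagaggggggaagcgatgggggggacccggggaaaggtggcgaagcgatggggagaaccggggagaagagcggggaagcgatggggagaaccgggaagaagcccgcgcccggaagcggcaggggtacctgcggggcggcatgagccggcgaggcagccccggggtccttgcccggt
PFKFB3: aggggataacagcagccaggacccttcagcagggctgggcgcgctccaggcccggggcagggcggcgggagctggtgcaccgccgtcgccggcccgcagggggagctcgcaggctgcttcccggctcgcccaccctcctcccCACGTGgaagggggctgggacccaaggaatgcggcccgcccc
The HK2 window shows 3 marked stretches and the LDHA window 3, of which 2 form CACGTG, the E-box read alike on both strands. The PFKFB3 window shows 1, also CACGTG, and the PFKP window none. Over the 10 genes, 6 windows held ACGTG or GCGTG, against 43.2% of all 34943 RefSeq windows, and 2 held CACGTG, against 6.32%. GGAA, the ETS core, was in 8 of 10 windows and in 92.7% of all, and GGAAGGAA, a unit of the repeats that the fusion is known to bind, was in 0 of 10 and in 3.06% of all. PFKP has 3 further RefSeq windows, farther from the MANE start, of which 1 holds 1 core, another 3 and the other none. A match in these letters is no evidence of binding.

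**Figure D2:**
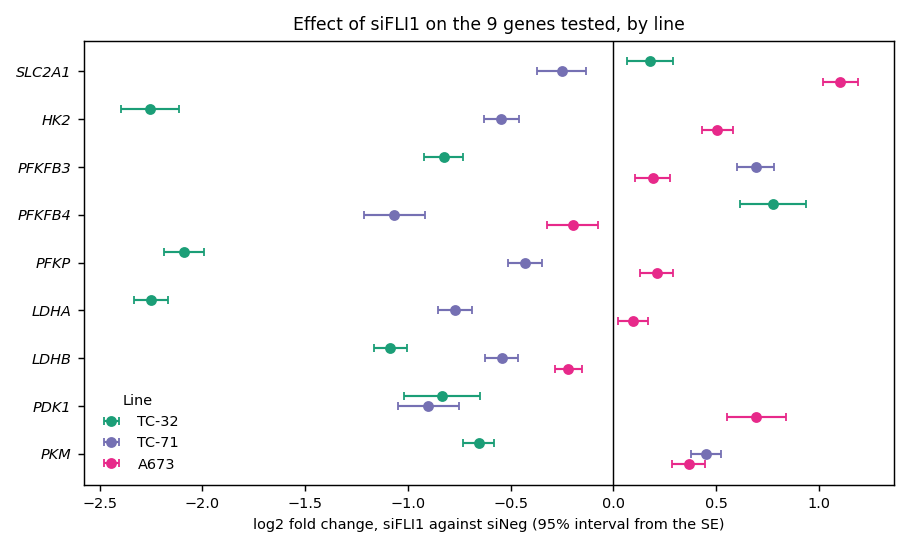
Log2 fold change of siFLI1 against siNeg for the 9 tested genes in each line, with 95% intervals from the SE. HK2, PFKP and LDHA lie below -2 in TC-32, and LDHB lies below 0 in all 3 lines.

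Direction differed between lines for 8 of the 9 tested genes, LDHB being the exception, whereas 73.5% of all genes called in the 3 lines shared direction in all of them. LDHA is among the 8 only through its A673 rise (log2 0.10), which was -0.0078 with library size alone. That rise also missed the threshold in 5 other alternatives, and the place of LDHA in the A673 pairs below rests on it. SLC2A1 in TC-32 and PFKFB3 and PFKFB4 in A673 kept direction but missed the threshold in some alternatives, as given above. Their places in the pairs with those lines rest on these calls. TC-32 and TC-71 shared direction for 5 genes (HK2, PFKP, LDHA, LDHB and PDK1) and were opposite for 4. Of the 14484 genes tested in both lines, 55.3% were called in both in the same direction and 9.12% in opposite directions. TC-71 and A673 shared direction for 4 (PFKFB3, PFKFB4, LDHB and PKM) and were opposite for 5, beside 45.9% and 11.3% of 15518 genes. TC-32 and A673 shared it for 2 (SLC2A1 and LDHB) and were opposite for 7, beside 47.6% and 15% of 15539. These shares describe the 9 genes, which are few, and no test was made of them. Between A673 and TC-32, the change after siFLI1 differed for 9 of 9 genes by interaction contrasts in edgeR, where 62.1% of 19610 genes differed. Between TC-71 and TC-32 it differed for 8 of 9, where 53.6% of all genes did. Between A673 and TC-71 it differed for 8 of 9, where 51.6% did. HK2 had the widest gap, 2.74 on the log2 scale between A673 and TC-32 (SE 0.075, adjusted p = 1.02e-25). For PDK1, no difference was called between TC-71 and TC-32: it was -0.06 (95% interval -0.30 to 0.18, adjusted p = 0.740), which leaves room for a modest gap either way. PKM rose in TC-71 and A673 with a difference of -0.12 (unadjusted 95% interval -0.22 to -0.0079, adjusted p = 0.0784). That difference passed the threshold with library size alone (-0.18, adjusted p = 0.00562). It also passed without TC-71 siNeg replicate 1 (adjusted p = 0.049), A673 siNeg replicate 3 (0.0319), A673 siFLI1 replicate 2 (0.0369) or A673 siFLI1 replicate 3 (0.0479). A673 differs from the other lines also in medium and depth, and TC-71 from the others also in the counter. A673 columns name no time, beside 48 h for the other lines. FLI1 itself fell unequally, with a log2 change of -1.03 for TC-32, -1.47 for TC-71 and -2.09 for A673. The parts of these in the differences between lines cannot be told apart from that of the line.

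Within a library, the balance of isozymes was taken as a ratio of counts per kilobase of MANE Select transcript. These ratios are descriptive. Per kilobase, the siNeg libraries of TC-32 held PKM at 767, LDHB at 699, LDHA at 516 and PFKP at 91.9 CPM, all above PFKFB3 at 23.0, SLC2A1 at 16.4, HK2 at 9.61, PFKFB4 at 2.88 and PDK1 at 1.03. The long MANE transcript of PDK1 (14072 bases) lowers its value on this scale. LDHA to LDHB went from 0.735, 0.729 and 0.752 in siNeg to 0.336, 0.335 and 0.317 in siFLI1 libraries of TC-32, so LDHA fell further than LDHB. In TC-71 the ratio went from 0.726, 0.743 and 0.714 to 0.623, 0.621 and 0.620. A673 went the other way, from 0.560, 0.563 and 0.550 to 0.708, 0.679 and 0.691. The ratio thus moved toward LDHB in 2 lines and toward LDHA in A673, with no overlap between siRNAs.

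The PFKFB pair moved in opposite directions in TC-32 and TC-71. PFKFB3 to PFKFB4 was 7.79, 8.05 and 8.13 in siNeg and 2.61, 2.79 and 2.50 in siFLI1 libraries of TC-32. In TC-71 it was 2.72, 2.76 and 2.56 against 8.56, 9.23 and 9.30. A673 had 10.1, 9.19 and 8.56 against 11.8, 12.1 and 12.5. The ratio thus fell in TC-32 to a mean of 2.63, beside 2.68 in siNeg of TC-71, and rose in TC-71 to 9.03, beside 7.99 in siNeg of TC-32. HK2 to HK1 had means of 0.168 and 0.0572 in TC-32, 1.71 and 1.23 in TC-71 and 0.186 and 0.216 in A673, siNeg first, so HK2 was the larger of the pair only in TC-71, where HK1 itself was at 60.6 CPM against 206.2 in TC-32 and 197.7 in A673. PFKP to the sum of PFKL and PFKM had means of 1.24 and 0.266 (TC-32), 0.847 and 0.817 (TC-71) and 0.745 and 1.05 (A673). PFKP thus went from above to below the sum of the other subunits in TC-32. In A673 it went from below to just above it, but stayed below (log2 -0.12) with all annotated exons as the length. SLC2A1 to SLC2A3, the neuronal-type glucose transporter, had means of 0.604 and 1.95, 2.14 and 1.48, and 0.944 and 1.11, in the same order. PDK1 to the sum of PDK2, PDK3 and PDK4 had means of 0.161 and 0.0569, 0.194 and 0.0697, and 0.105 and 0.204. In all 18 pairs of groups (6 ratios in 3 lines) the siRNAs did not overlap. Over single genes, 82.5% (TC-32), 73.8% (TC-71) and 73.6% (A673) had groups apart, and no share over other ratios was taken. The smallest shift, PFKP to PFKL plus PFKM in TC-71, was 1.04-fold. Which isozyme is the larger can turn with the length used.

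**Figure D3:**
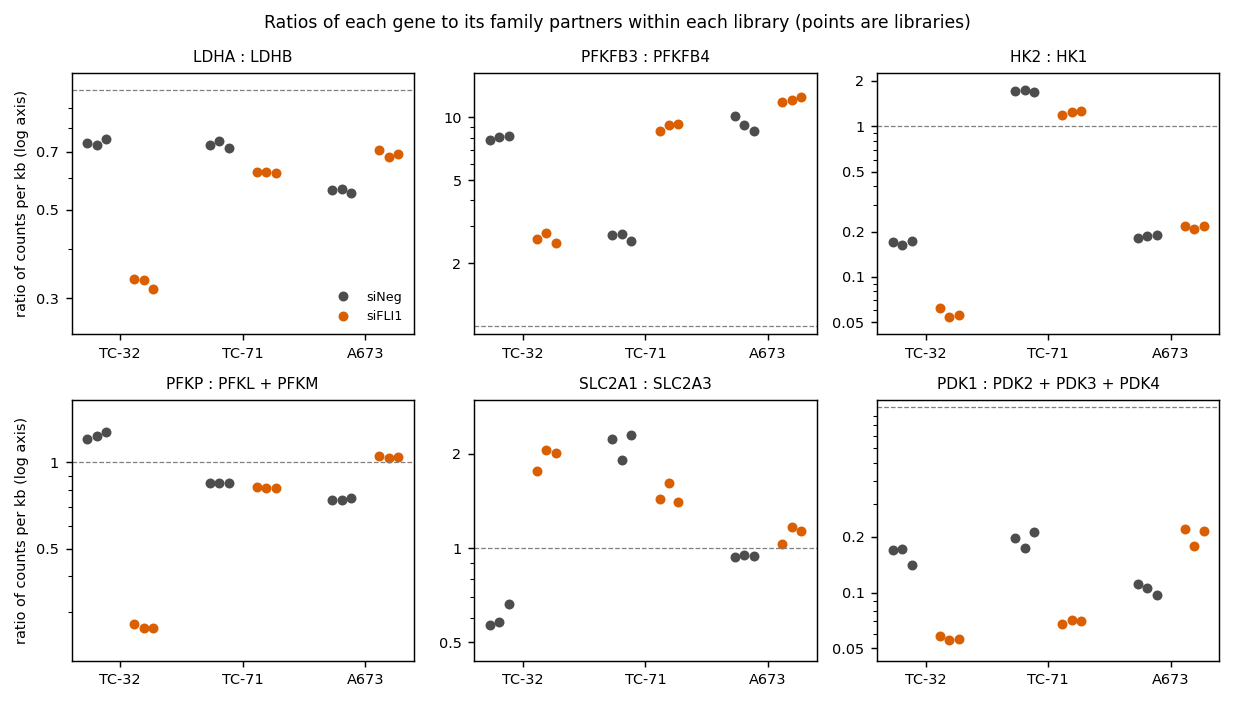
Ratio of counts per kilobase within each library (points; log axis), by line and siRNA, for 6 isozyme pairs or families. LDHA to LDHB falls to about 0.329 in TC-32 after siFLI1 and rises to 0.693 in A673, and PFKFB3 to PFKFB4 moves oppositely in TC-32 and TC-71.

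Other genes of the pathway were read from lists. Over all genes tested, 81.4% were called in TC-32 (41.3% higher, 40.1% lower) and 71.9% in TC-71 (36.8% and 35%). For A673 the share was 71% (35.6% and 35.4%). Rises and falls were thus about equally common over all genes, so a near-even split does not set a list apart. No test was made of the lists against these shares. Of 15 other glycolytic enzymes and transporters, 13 fell and 2 rose in TC-32, 12 fell and 1 rose in TC-71, and 5 fell and 6 rose in A673. Their median log2 change was -0.87, -0.63 and -0.013. ALDOA, named for its level, was at 31.1 CPM in siNeg of TC-71, beside 1023 in TC-32 and 1090 in A673. Its call in TC-71 thus rests on a lower count, and 42.8% of its exon bases lie in other gene models on its strand. With library size alone as the scaling, 9 fell and 5 rose in A673. ENO2, the neuronal enolase, fell in each line (log2 -1.91, -0.93 and -0.98 in TC-32, TC-71 and A673), as did PGK1, the first ATP-making enzyme of the pathway (-1.56, -0.85 and -0.23). SLC2A3 fell in TC-32 and rose in the others (-1.51, 0.29 and 0.88), and ALDOC, an aldolase, fell in TC-32 and TC-71 and rose in A673 (-0.54, -1.53 and 0.55). Of the 9 tested family partners of the 10 genes, 5 rose and 4 fell in TC-32, 4 and 3 in TC-71, and 4 and 2 in A673, with medians of 0.29, -0.08 and -0.02. HK1, PFKL, PFKM and SLC2A3 are counted in this list and in the glycolytic list. PFKM, the muscle-type phosphofructokinase subunit, fell in each line (-0.29, -0.63 and -0.42), and PFKFB2, the heart-type bifunctional enzyme, rose, fell and rose (0.85, -0.67 and 0.27). PDK4 had 0 counts in all siNeg and 18 to 29 in siFLI1 libraries of TC-32, at least 7.01-fold higher against a floor of 3 counts per library.

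Genes that carry pyruvate onward mostly fell in TC-32 and TC-71 and went both ways in A673. Of 12 genes of pyruvate entry and the TCA cycle, 11 fell and 0 rose in TC-32, 9 fell and 1 rose in TC-71, and 3 fell and 5 rose in A673. The medians were -0.81, -0.42 and 0.0083, and with library size alone 6 fell and 5 rose in A673. PDHA1, the catalytic subunit of pyruvate dehydrogenase that PDK1 phosphorylates, fell in each line (-1.54, -0.46 and -0.28), as did MDH2, the mitochondrial malate dehydrogenase (-0.92, -0.47 and -0.13). PDP1, the phosphatase that opposes PDK1, rose in TC-71 and A673 (2.03 and 1.90) and fell slightly in TC-32 (-0.15). The last of these did not pass the threshold with library size alone (-0.11, adjusted p = 0.0949 in edgeR). IDH3A, a subunit of isocitrate dehydrogenase, fell in TC-32 and TC-71 and rose in A673 (-0.98, -0.34 and 0.22). Of their exon bases, IDH3A shares 38.8% and PDHA1 19.3% with genes on the other strand. In the pentose phosphate pathway, 4 of 6 genes fell and 1 rose in TC-32, 4 fell and 2 rose in TC-71, and 1 fell and 3 rose in A673 (medians -0.60, -0.20 and 0.16). PGD fell in each line (-0.74, -0.45 and -0.11) and PGLS rose in each (0.50, 0.28 and 0.24). TKT fell in TC-71 (-0.20), rose in A673 (0.38) and was at -0.0027 in TC-32 (adjusted p = 0.956).

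Of 8 HIF pathway regulators, 5 rose and 1 fell in TC-32 and in TC-71, and 6 rose and 2 fell in A673, with medians of 0.26, 0.34 and 0.34. EPAS1, which encodes HIF-2α, rose most. TC-32 went from a mean of 70.9 CPM to 496, TC-71 from 31.6 to 136 and A673 from 6.19 to 52.3 (log2 2.81, 2.10 and 3.08). HIF1A, named after its values were seen, rose in TC-71 and A673 (0.44 and 0.46) and was at -0.07 in TC-32 (adjusted p = 0.205). HIF1AN, the asparaginyl hydroxylase that inhibits HIF, rose in each line (0.47, 0.24 and 0.22). EGLN3, a prolyl hydroxylase that marks HIF for decay and is itself a hypoxia target, fell in TC-32 and rose in TC-71 and A673 (-0.58, 1.40 and 1.29). EGLN2, another, went 0.13, 0.51 and -0.22. Of its exon bases, 30.6% lie in other gene models on its strand, and its siNeg level was 6.09 CPM in the TC-71 table, beside 72.3 in TC-32 and 70.2 in A673, so the TC-71 change rests on a lower count. Of 15 hypoxia response genes outside glycolysis, 8 rose and 3 fell in TC-32, 6 rose and 7 fell in TC-71, and 10 rose and 1 fell in A673 (medians 0.40, -0.03 and 0.45). With library size alone 9 rose and 3 fell in A673. EGLN3 is counted both here and among the regulators, and CA12 both here and among the family partners. ADM, a vasodilator peptide, rose in each line (3.10, 2.43 and 4.11), as did CA12, the other tumour-associated surface carbonic anhydrase (1.50 in TC-32, 3.92 in A673, and from 0 to 4 counts to 23 to 47 in TC-71). DDIT4, an mTORC1 inhibitor, rose in TC-32 and A673 and fell in TC-71 (2.28, 0.45 and -0.61).

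Among 6 glucose-sensing genes, 4 rose and 1 fell in TC-32 (median 1.69), 2 rose and 2 fell of 5 tested in TC-71 (0.08), and 3 rose and 2 fell in A673 (0.11). MLXIP, a glucose-responsive transcription factor, rose in each line (1.06, 0.36 and 0.27). MLXIPL, its relative known as ChREBP, rose in TC-32 and TC-71 and fell in A673 (2.32, 0.64 and -1.04). ARRDC4, a target of both, rose 10.7-fold in TC-32 (log2 3.42), was not tested in TC-71 and fell in A673 (-0.29). TXNIP, a target that restrains glucose uptake and was named after its values were seen, rose from 91.8 to 538 CPM in TC-32 (log2 2.55) and fell in TC-71 (-0.60). In A673 it was at 0.06 (adjusted p = 0.276 in edgeR). In TC-32, HK2, PFKP and LDHA were lower while TXNIP and ARRDC4 were higher in the same libraries. In TC-71, HK2, PFKP, LDHA and TXNIP were all lower. In A673, HK2, PFKP and, by little, LDHA were higher, ARRDC4 was lower and TXNIP was not called. A link between these genes was not tested.

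**Figure D4:**
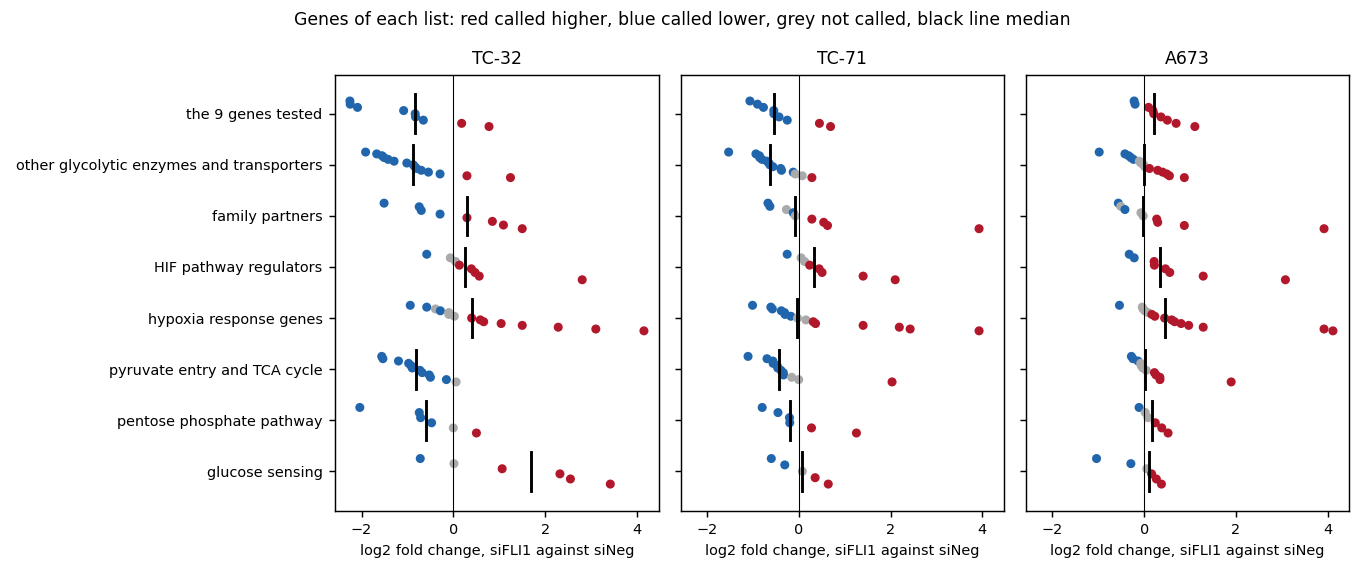
Log2 fold changes of the genes in each pathway list (points) and of the 9 tested glycolysis genes, by line, with the median of each as a bar. PDK4 in TC-32, with 0 counts in siNeg, has no point but counts in the median. The glycolytic, pyruvate and TCA lists lie mostly below 0 in TC-32 and TC-71 and around 0 in A673.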

How the data were processed

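Messenger RNA libraries were made with a stranded kit, per the labels' protocols. The values the authors deposited are expected counts for TC-32 and A673 (from RSEM, by the tables' names) and whole counts for TC-71 (from Subread, by its name). Per the submitters' processing notes, the tools were cutadapt 4.4, STAR 2.7.3, featureCounts, Subread 2.0.3 and limma 3.38.3, with GRCh38; the notes do not say which tool made which table. Annotation release, strand setting and filters are not given in the sources used here. No molecular identifiers are named, so the floor of 3 counts covers counting error only. Libraries of the further line ES-5838 and of siERG were not analysed here.

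Expected counts were rounded. Each line had its own fit in edgeR 4.0.16 under R 4.3.3 (filterByExpr by group, TMM, robust quasi-likelihood fit), with p-values adjusted by Benjamini-Hochberg over all genes tested and a threshold of 0.05. Every single adjusted p is from edgeR. The ranges of adjusted p over all alternatives also take in fits by DESeq2 and limma-voom. Differences between lines were interaction contrasts in one model of all 18 libraries. CPM are TMM-scaled, and fold changes use a prior count of 0.125. Replicates were checked to differ by more than sampling noise, and the scripts were tested on simulated data. Positions, lengths and overlaps came from GENCODE release 44, which held 57754 of 58336 identifiers, and promoter windows from RefSeq (Python 3.11.15).

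The genes, the lists, the tests and the alternatives were chosen with earlier results of these data known. All 10 genes are named. In each list the text names the 2 genes with the largest mean change among those called in the same direction in all 3 lines, and the 2 with the widest gap among those called in opposite directions. HIF1A, TXNIP and ALDOA are outside this rule. A gene that the rule names is not reported here. Alternatives tried were other tools (DESeq2 1.42.0, and voom in limma 3.58.1), other scalings (RLE factors, or library size alone), other filters (none, or a mean count of 10), unrounded values, a block for the replicate number, each library left out in turn, fits of only the 12 libraries of 2 lines, and other lengths for ratios.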

Additional observations from a re-analysis of the deposited data

Results flagged for a closer look

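The change after siFLI1 differed between lines, by an interaction contrast in edgeR at an adjusted p under 0.05, in 25 of the 27 comparisons of a gene between 2 lines. Values are the log2 change in the first line less that in the second. The size of the FLI1 fall differed between lines too, as given above, and its part in these values was not tested. For the genes of glucose entry, A673 against TC-32 gave 0.90 for SLC2A1 and 2.74 for HK2. TC-71 against TC-32 gave -0.42 and 1.72, and A673 against TC-71 gave 1.33 and 1.02. SLC2A1 thus responded most upward in A673, and HK2 most downward in TC-32.

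At the committed step, A673 against TC-32 gave 2.28 for PFKP, 0.99 for PFKFB3 and -0.9996 for PFKFB4. TC-71 against TC-32 gave 1.67, 1.53 and -1.83 for the same genes. A673 against TC-71 gave 0.61, -0.53 and 0.83. PFKFB4 was the gene with the most upward change in TC-32 relative to both other lines.

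For the end of the pathway, A673 against TC-32 gave 2.32 for LDHA, 0.84 for LDHB, 1.50 for PDK1 and 1.00 for PKM. TC-71 against TC-32 gave 1.49 for LDHA, 0.55 for LDHB and 1.11 for PKM. A673 against TC-71 gave 0.83 for LDHA, 0.29 for LDHB and 1.56 for PDK1. LDHB, lower in all 3 lines, still differed in size between each pair of lines.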

How the results depend on the processing

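Of 369 repeats of the 27 line tests, 359 kept direction and call, 9 missed the threshold and 1 reversed. Of 486 repeats of the 27 differences between lines, 480 kept both, 5 newly passed and 1 reversed. The reversals were LDHA in A673 with library size alone (-0.0078, adjusted p = 0.852 in edgeR) and PDK1 in TC-71 against TC-32, a difference not called, without TC-32 siNeg replicate 3 (0.024; the cause was not tested). Library size alone shifted the median of all genes in A673 to -0.11 and left 5 genes higher and 2 lower there. With that scaling, 40.9% of the calls over all A673 genes were higher, against 50.1%. Leaving out single libraries, between 1 and 2 genes were higher in TC-32 (1 without siNeg replicate 1) and between 1 and 2 lower in A673 (1 without siNeg replicate 3 or siFLI1 replicate 3). The replicate block called 9 of the genes in TC-32 and in TC-71 and 8 in A673, where LDHA was at 0.09 (adjusted p = 0.0712). Same-numbered libraries did not deviate together (correlations -0.205 to 0.053, 0 of 9 over 0.1), and 4 of 18 libraries correlated best with their own number. Without division by length, log2 ratios changed sign for LDHA to LDHB in siNeg of TC-32 (0.34) and TC-71 (0.32) and in siFLI1 of TC-71 (0.095) and A673 (0.25). They also did so in A673 siFLI1 for PFKP to PFKL plus PFKM (-0.13), for SLC2A1 to SLC2A3 (-0.031) and for PDK1 to its relatives (0.071), and in TC-71 siNeg for PDK1 to its relatives (0.030). With all annotated exons as the length, a choice made after seeing the data, PFKP to PFKL plus PFKM in A673 siFLI1 was -0.12. Sizes changed more often than signs, over the ratios of each group and their changes. Without length, 8 reversed, 30 moved by at least the SD between libraries and 16 stayed within it. With all annotated exons, 1 reversed, 34 moved and 19 stayed. Low counts limit CA9 alone among the 10 genes, also in A673, the line sequenced deepest.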
